A study of Mus musculus with 16 samples.

Results

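Culture toward induced regulatory T cells (iTreg) was compared with neutral (Th0) culture in mouse CD4 T cells that lack Ezh2, by RNA sequencing of 3 iTreg and 3 Th0 libraries. These 6 libraries were chosen by their labels out of 16 in the series, which also holds 6 RNA libraries of control cells (3 iTreg, 3 Th0) and 4 chromatin libraries for the histone mark H3K27me3 from Th0 cells (2 of each genotype). The Ezh2-deleted cells carried the alleles labelled Ezh2 fl/fl.CD4Cre (genotype Ezh2-/-), so that a Cre recombinase under Cd4 regulatory sequences removes the floxed gene in T cells, and the control cells were Ezh2 fl/fl without Cre, labelled wild type. All cultures began with sorted naive CD4 T cells and received anti-CD3 bound to the plate (5 ug/ml) and soluble anti-CD28 (1 ug/ml). Th0 cultures were given recombinant human IL-2 (50 U), and iTreg cultures a higher dose of it (200 U/ml) together with recombinant human TGF-b1 (5 ng/ml). The titles give day 5 for the iTreg libraries and day 4 for the Th0 libraries, whereas the protocol gives a harvest at day 4. The contributions of TGF-b1, of the IL-2 dose and of the day to any difference between the cultures cannot be told apart. The series text calls the libraries of a group biological replicates. They are named here by the start of their titles: iTreg.Ezh2KO.150, Ezh2KO.153 and Ezh2KO.165 for iTreg culture, then Ezh2KO.165, followed by Ezh2KO.174 and Ezh2KO.175, for Th0 culture, and values are given in that order unless stated. No label says whether the number that both cultures have, in iTreg.Ezh2KO.165 and Th0.Ezh2KO.165, marks 1 mouse.

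As background, TGF-beta binds a pair of receptor kinases that phosphorylate Smad2 and Smad3, which enter the nucleus with Smad4 and act on target genes. In an activated CD4 T cell with IL-2, this signal switches on Foxp3, the transcription factor that defines regulatory T cells, together with the integrin Itgae and the inhibitors Smad7 and Skil, which feed back on the pathway. Ezh2 is the catalytic subunit of Polycomb repressive complex 2 (PRC2), which places the repressive mark H3K27me3. Cre under Cd4 sequences acts in the thymus, so the floxed gene is cut before the cells are put into culture.

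Ezh2 itself was read at 123, 118 and 48.7 CPM (counts per 1000000 counted reads of a library) in iTreg and at 169, 154 and 148 in Th0 cells of the deleted genotype, and the groups did not overlap. In control cells it was 251, 241 and 166 in iTreg and 307, 295 and 312 in Th0. The remaining reads cover the whole gene, of which a floxed deletion removes only some exons, so the level is no measure of how many cells kept Ezh2. The culture difference of Ezh2 did not pass the test in either genotype (log2 change -0.73, edgeR adjusted p 0.0899, in deleted cells).

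The 6 libraries held 21910114 to 28443427 counted reads each. iTreg.Ezh2KO.165 stood apart: 38.6% of its tested genes lay more than 2-fold from the mean of the other libraries of its group, against 11.8% and 15.2% for Ezh2KO.150 and Ezh2KO.153 and 1.53% to 3.33% for the Th0 libraries. On the first principal component of the 6 libraries, which held 71.6% of the variance, it lay at -136.5, with Ezh2KO.150 and Ezh2KO.153 at -11.54 and -5.121 and the Th0 libraries at 48.55 to 54.16. The control library iTreg.Ezh2fl/fl.177 also stood apart from its group, with 15.8% of genes over 2-fold, against 6.31% and 4.15% for Ezh2fl/fl.154 and Ezh2fl/fl.155. On the first component of all 12 RNA libraries, these 3 lay at -102, -40.15 and -48.34, and iTreg.Ezh2KO.165 at -110.1. Among the 6 libraries of deleted cells, Xist, the RNA of the inactive X chromosome, was read at 1143 and 1052 CPM in the iTreg and Th0 Ezh2KO.165 libraries and under 1 CPM in the other 4. Markers of other cell types moved with the culture. The summed level of 12 B cell markers was 716.8, 313.7 and 341.5 CPM in Th0 and 97.8, 109.8 and 55.73 CPM in iTreg cells, and that of the CD8 genes Cd8a and Cd8b1 was 6.33 to 10.0 CPM in Th0 and 138.5, 132.3 and 39.57 in iTreg. Of 8 markers of natural killer and related cells, 5 were tested and 2 (Klrd1 and Klrk1) were called higher in iTreg, where 16.6% of all tested genes were. Their summed level was 13.83 to 18.18 CPM in Th0 and 85.58 to 111.8 in iTreg for all 8. In control cells 2 of the 5 were called higher too, with sums of 3.284 to 4.067 CPM in Th0 and 21.86 to 32.67 in iTreg. The 13 T cell identity genes in deleted cells summed to 3144 to 3677 CPM in Th0 and to 4054, 4079 and 6318 in iTreg. In such bulk samples, fewer cells of a type and less RNA per cell cannot be told apart.

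Across 12845 tested genes, 2138 (16.6%) were called higher and 1124 (8.75%) lower in iTreg than in Th0 culture of Ezh2-deleted cells (edgeR quasi-likelihood test over all 12 RNA libraries, Benjamini-Hochberg adjusted p under 0.05). The changes were of moderate size for most: the median log2 change was 1.07 among the higher and -0.832 among the lower genes, and 152 and 101 genes passed 8-fold. Every iTreg library lay above every Th0 library for 3927 tested genes (30.6%) and below for 3559 (27.7%). The counts depended on which libraries entered the fit. Leaving out 1 Th0 library of the deleted genotype gave 689 to 725 higher and 410 to 422 lower genes, the 6 libraries alone gave 385 and 211, and leaving out iTreg.Ezh2KO.165 and the control library iTreg.Ezh2fl/fl.177 gave 3732 and 3749. Of the 2138 and 1124 genes, 576 and 330 kept their call in all 12 fits that each left out 1 library. Genes named below as higher, lower, risen or fallen kept it in those fits unless a sentence says otherwise, and also under other size factors, no filter on low counts, DESeq2 and without both Ezh2KO.165 libraries. In the 6 libraries alone, 21 of these named genes missed the threshold: Bmpr2, Ccr8, Tbx21, Il18r1, Ccr4, Nfil3, Itgal, Ltb, Cd4, Tnfrsf8, Cd8a, Kirrel, Gna15, Tox, Nfatc2, Smurf2, Ikzf4, Tnfaip3, Dusp2, Trib3 and Wdr12 (edgeR adjusted p 0.0506 to 0.106).

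Within Ezh2KO.165, iTreg over Th0 had the same sign for 2122 of the 2138 higher and 1124 of the 1124 lower genes, and over the other 4 libraries for 2138 and 1124. These libraries entered the calls, so the counts describe them and are no test. The sizes differed: the median log2 ratio of the higher genes was 1.43 within Ezh2KO.165 and 0.729 in the others, and of the lower genes -1.25 and -0.657.

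**Figure D1:**
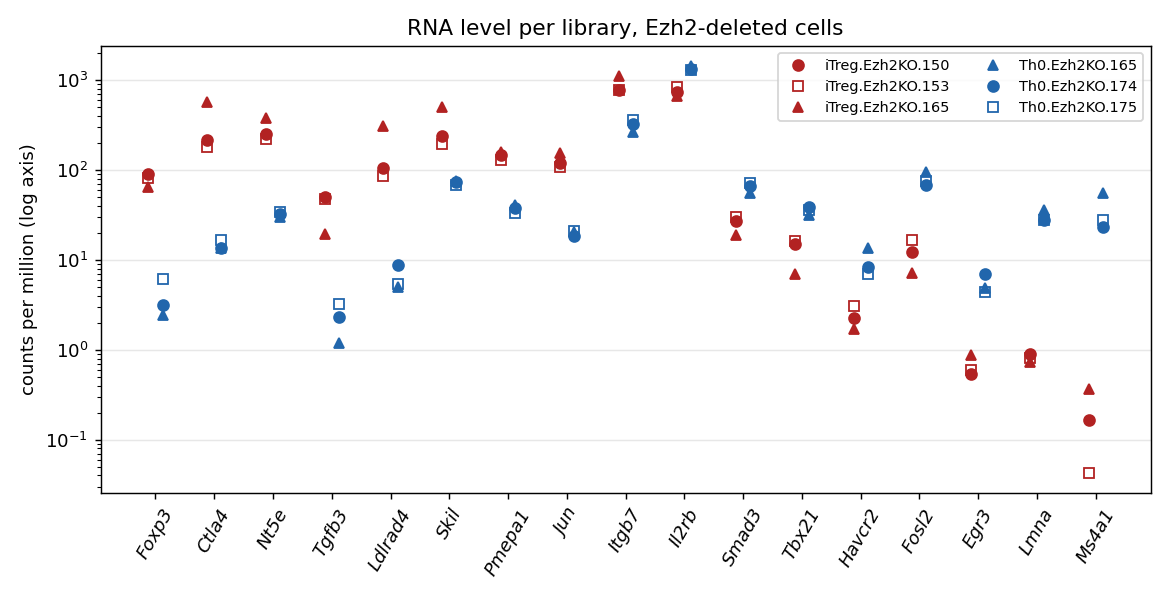
RNA level in CPM (log axis) of 17 genes in the 6 libraries of Ezh2-deleted cells. Red points are iTreg and blue points Th0 libraries, and the symbol gives the library. For every gene shown the cultures do not overlap; Foxp3 lies at 65.2 to 90.9 in iTreg and 2.43 to 6.15 in Th0.

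Of 23 tested genes on the regulatory T cell list, 7 were higher in iTreg culture, 1 was lower and 15 were not called, where 16.6% of all tested genes were higher and 8.75% lower. The median log2 change was 0.415, against 0.0422 over all tested genes. In control cells 7 were higher, none lower and 16 not called, with a median of 0.722. Foxp3 (chromosome X, 7579676 to 7595243, mm10) was read at 90.9, 82.5 and 65.2 CPM in iTreg and at 2.43, 3.16 and 6.15 CPM in Th0 cells. The iTreg libraries lay far above all Th0 libraries, and the log2 change was 4.31 (SE 0.34, edgeR adjusted p 0.000135). In control cells Foxp3 stood at 849.5 to 979 CPM in iTreg and 15.9 to 23.9 in Th0, a log2 change of 5.38. The response to culture thus did not differ by the test between genotypes (difference -1.07, SE 0.43, edgeR adjusted p 0.247), while the level in iTreg cells was lower in each deleted than in each control library.

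Nt5e, the ecto-enzyme CD73 that makes adenosine from AMP, was read at 253, 223 and 381 CPM in iTreg and 30.4, 32.8 and 34.3 CPM in Th0 cells (log2 change 3.11, SE 0.28, edgeR adjusted p 0.000255). Its response in control cells was of like size, at 3.61. Ctla4 (chromosome 1, 60887000 to 60915832), an inhibitory receptor that competes with CD28 for its ligands, was read at 214, 182 and 577 CPM in iTreg and at 13.7, 13.4 and 16.8 in Th0 cells (log2 change 4.44, SE 0.42, edgeR adjusted p 0.000282). Control cells already held 271 to 343 CPM of it in Th0 and 392 to 469 in iTreg, so the control response was 0.49 and the difference between responses was 3.95 (SE 0.54, edgeR adjusted p 0.00403). Tigit, another inhibitory receptor, rose from 4.75, 5.42 and 3.76 to 16.8, 13.4 and 18.6 CPM (log2 change 1.78, edgeR adjusted p 0.00165) and lay at or under 1.30 CPM in all control libraries. Its response too was larger than in control cells, by 2.35 (edgeR adjusted p 0.00771).

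Nrp1, a co-receptor of semaphorins and of TGF-beta that is induced in iTreg culture of control cells, was nearly flat without Ezh2. It was read at 20.8, 18.7 and 27.6 CPM in iTreg and 13.0, 13.8 and 12.1 in Th0 cells, so that the groups did not overlap, but the change of 0.76 missed the threshold (edgeR adjusted p 0.0532). In control cells it went from 7.85 to 11.5 CPM in Th0 to 172 to 342 CPM in iTreg, a log2 change of 4.68, and the difference was -3.92 (SE 0.37, edgeR adjusted p 0.000896). Entpd1, the enzyme CD39 that acts before Nt5e in making adenosine, had a smaller response as well, by 1.98 on the log2 scale (edgeR adjusted p 0.0372; 0.115 at most when 1 library was left out, with the call lost without iTreg.Ezh2KO.150 or Ezh2KO.153 of the deleted genotype or any Th0 library of either genotype). Il2ra, the alpha chain of the IL-2 receptor, was read at 1294, 1279 and 256 CPM in iTreg and 904, 551 and 700 in Th0 cells. The cultures overlapped through iTreg.Ezh2KO.165. Il2rb, the beta chain, was lower in every iTreg library, at 734, 832 and 671 against 1431, 1332 and 1284 CPM (log2 change -0.88, edgeR adjusted p 0.00133).

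Itgae, the integrin alpha chain CD103 and a direct TGF-beta target, was read at 424, 373 and 1960.0 CPM in iTreg and 34.5, 16.7 and 11.7 in Th0 cells. The log2 change was 5.42 (SE 1.22, edgeR adjusted p 0.0143), and the call did not hold without Th0.Ezh2KO.174 or Th0.Ezh2KO.175 (adjusted p at most 0.0621). Ikzf2, which encodes the factor Helios, was 18.4 and 15.1 CPM in iTreg.Ezh2KO.150 and Ezh2KO.153 but 220 in iTreg.Ezh2KO.165, against 2.21 to 4.25 in Th0 cells. The change was 4.72 (edgeR adjusted p 0.0131), lost without Th0.Ezh2KO.174 or Ezh2KO.175 (at most 0.0578), and 2.66 without both Ezh2KO.165 libraries. Ikzf4, which encodes Eos, a partner of Foxp3, rose with less spread, from between 20.5 and 25.0 to between 41.2 and 75.0 CPM (log2 change 1.18, edgeR adjusted p 0.00576).

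Of 18 tested receptor and SMAD genes of the TGF-beta pathway, 9 were called higher and 1 lower (16.6% and 8.75% of all tested genes were), with a median log2 change of 0.613; in control cells it was 12 and 1, with a median of 1.18. Leaving out Th0.Ezh2KO.174 or Ezh2KO.175 of the deleted genotype left 4 higher, and the 6 libraries alone gave 3. Tgfb3, 1 of the 3 ligands (chromosome 12, 86056744 to 86079041), was read at 50.0, 47.9 and 19.4 CPM in iTreg and 1.20, 2.34 and 3.20 in Th0 cells (log2 change 4.08, SE 0.45, edgeR adjusted p 0.000582). Tgfb1, the ligand given as protein to the iTreg cultures, was not called, at 195, 205 and 119 CPM in iTreg and 238, 193 and 192 in Th0 cells. The mouse transcript and the recombinant human protein are separate, so the RNA does not report the added cytokine.

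Among receptors, Tgfbr2, the subunit that binds the ligand first, was read at 244, 223 and 775 CPM in iTreg and 116, 118 and 123 in Th0 cells (log2 change 1.77, edgeR adjusted p 0.0304). Its call was lost without iTreg.Ezh2KO.165 or any of the 3 Th0 libraries (adjusted p at most 0.0958). Bmpr1a and Bmpr2, receptors for the related bone morphogenetic proteins, rose by 0.83 and 1.82 on the log2 scale (edgeR adjusted p 0.00692 and 0.00670). The activin receptors Acvr1 and Acvr2a were called at 0.76 and 2.44, and Itgav, an integrin chain that frees latent TGF-beta, at 0.60, but these calls were lost when 1 Th0 library was left out (Ezh2KO.174 or Ezh2KO.175 for Acvr1, any of the 3 for the others; adjusted p at most 0.0728). Furin, the protease that cleaves the TGF-beta precursor, rose from between 39.0 and 49.5 CPM to between 68.7 and 116 (log2 change 0.98, edgeR adjusted p 0.0121; 0.0538 at most without Th0.Ezh2KO.174 or Ezh2KO.175). Control cells had a larger Furin response of 3.43, and the difference of -2.46 passed the test (edgeR adjusted p 0.00245).

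Of the SMADs that carry signals, Smad3 was called lower and Smad5 higher. Smad3 (chromosome 9, 63646767 to 63757994), a carrier of the TGF-beta signal, was read at 27.2, 30.1 and 18.9 CPM in iTreg and at 55.7, 66.6 and 71.6 in Th0 cells. All iTreg libraries lay below all Th0 libraries, with a log2 change of -1.38 (SE 0.17, edgeR adjusted p 0.00110). Control cells held Smad3 at 47.2 to 62.5 CPM in both cultures, so the responses differed by -1.49 (SE 0.24, edgeR adjusted p 0.00900). Smad5, which carries bone morphogenetic protein signals, rose from 26.1, 29.8 and 28.6 to 56.6, 49.1 and 75.0 CPM (log2 change 1.07, edgeR adjusted p 0.00200), and in control cells by 1.71.

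Of 19 tested genes on the list of TGF-beta targets, 10 were higher and 2 lower in iTreg culture, with a median log2 change of 1.01. Of all tested genes 16.6% were higher and 8.75% lower. Leaving out Th0.Ezh2KO.175 left 5 targets higher. In control cells 15 were higher and 1 lower, with a median of 1.92. Ldlrad4, a membrane inhibitor of SMAD activation, was read at 106, 86.8 and 313 CPM in iTreg and 5.06, 8.80 and 5.34 in Th0 cells (log2 change 4.69, SE 0.67, edgeR adjusted p 0.00189). Pmepa1, a relative of Ldlrad4 that also holds SMADs back, rose from 40.9, 38.0 and 33.3 to 149, 128 and 160.2 CPM (log2 change 1.93, SE 0.18, edgeR adjusted p 0.000272). Skil, which encodes the SMAD co-repressor SnoN, rose from 76.4, 74.3 and 68.8 to 239, 195 and 498 CPM (log2 change 2.06, SE 0.37, edgeR adjusted p 0.00601). Smurf2, a ubiquitin ligase for the receptor and for SMADs, rose by 1.74 (edgeR adjusted p 0.00734). These brakes or targets of the pathway were higher in every iTreg library, and iTreg.Ezh2KO.165 was the highest for each.

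Smad7, the inhibitory SMAD, had the same pattern with more spread: 51.0, 43.5 and 186 CPM in iTreg against 14.8, 19.6 and 18.3 in Th0 cells (log2 change 2.38, edgeR adjusted p 0.0187). Its call was lost without any 1 of the 3 Th0 libraries (adjusted p at most 0.0759), and the value was 1.28 without both Ezh2KO.165 libraries. Ski and Tgif1, 2 further SMAD co-repressors, were called at 0.87 and 1.85, and lost without Th0.Ezh2KO.165 or Ezh2KO.175 (adjusted p at most 0.0591). Jun (chromosome 4, 95049034 to 95052222), a subunit of the AP-1 factor, was the TGF-beta target with the smallest p: 119.7, 109 and 157 CPM in iTreg against 20.7, 18.6 and 21.0 in Th0 cells (log2 change 2.65, SE 0.16, edgeR adjusted p 2.47e-05). It was also the 1 target whose response was larger than in control cells (difference 1.19, edgeR adjusted p 0.0125). Id2, an inhibitor of helix-loop-helix factors, fell from 832, 679 and 642 to 194, 237 and 48.0 CPM (log2 change -2.20, edgeR adjusted p 0.0163; 0.0564 without Th0.Ezh2KO.165).

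Ccr8, a chemokine receptor of tissue regulatory T cells, was at 12.2, 12.01 and 10.1 CPM in iTreg and 36.3, 16.1 and 20.6 in Th0 cells (log2 change -1.12, edgeR adjusted p 0.0180). It rose by 1.92 in control cells, and the difference was -3.04 (edgeR adjusted p 0.00303). The calls of a smaller response than in control cells numbered 4 on the target list (2.86% of all tested genes were called so): Ccr8, Nrarp, a Notch inhibitor, Id1 and Ltbp4, which binds latent TGF-beta. The differences of the last 3 were -2.16, -4.56 and -2.33, and none of these 3 held in every fit with 1 library left out (edgeR adjusted p at most 0.126). Without iTreg.Ezh2KO.165 of the deleted genotype the count was 9, and without Th0.Ezh2KO.174, or Th0.Ezh2fl/fl.173 or Ezh2fl/fl.177, it was 1.

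Of 20 Th1 genes, 4 were higher and 2 lower, shares close to the 16.6% and 8.75% of all tested genes, and the median log2 change was 0.0767. Without 1 library 1 to 6 were higher and 1 to 5 lower, with 1 higher without any 1 Th0 library of the deleted genotype and both highest counts without iTreg.Ezh2KO.165. In control cells 2 were higher and 4 lower. Tbx21, which encodes the Th1 factor T-bet, was at 15.2, 16.2 and 7.03 CPM in iTreg and 31.9, 38.7 and 36.4 in Th0 cells (log2 change -1.51, SE 0.30, edgeR adjusted p 0.00853). Il18r1, a receptor chain for IL-18, was higher, at 151 to 196 CPM against 44.2, 85.3 and 91.1 CPM (log2 change 1.21, edgeR adjusted p 0.0126). Ifng was at 1.03, 1.07 and 7.58 CPM in iTreg and 30.4, 19.7 and 13.5 in Th0 cells (log2 change -2.75, edgeR adjusted p 0.0272), while Ifngr1 and Runx3 were called higher by 1.4 and 0.44. These 3 calls were lost without any 1 of the 3 Th0 libraries, and that of Ifng also without iTreg.Ezh2KO.150 (adjusted p at most 0.101). Eomes, a T-box factor related to T-bet, was read at 345, 389 and 59.7 CPM in iTreg and 569, 726 and 555 in Th0 cells, with no call (edgeR adjusted p 0.104).

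Of 18 cytotoxic genes, 2 were higher and 4 lower (16.6% and 8.75% of all tested genes), and in control cells 3 and 3. None of the 4 was left without Th0.Ezh2KO.165 or Ezh2KO.174, and up to 5 were higher with 1 library left out. Srgn, the proteoglycan that packs granules, rose from 142, 141 and 121 to 416, 368 and 375 CPM (log2 change 1.49, edgeR adjusted p 0.00577), and Ctsw, a protease of killer lymphocytes, from 162, 201 and 181 to 367, 371 and 495 (1.15, edgeR adjusted p 0.00722). Prf1, the pore-forming perforin, was at 5.70, 7.50 and 1.05 CPM in iTreg and 16.4, 19.2 and 13.1 in Th0 cells (log2 change -1.80, edgeR adjusted p 0.0305; 0.0917 at most without 1 of the 3 Th0 libraries). In control cells Prf1 went the other way, from 1.38 to 1.76 CPM in Th0 to 15.9 to 17.6 in iTreg, and the difference was -5.11 (SE 0.74, edgeR adjusted p 0.00527). Gzmd, Gzmm and Serpinb9 were the other 3 lower genes (changes -2.38, -1.24 and -1.12, with edgeR adjusted p at most 0.0470, and at most 0.135 when 1 library was left out). Gzmb, a granzyme that triggers death of target cells, was at 2086 and 2581 CPM in iTreg.Ezh2KO.150 and Ezh2KO.153, 18.5 in iTreg.Ezh2KO.165 and 1865 to 2296 in Th0 cells, and Gzma at 473, 492 and 50.6 against 241 to 374. Neither was called, and the 2 cultures overlapped.

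On the Th2 list of 14 genes, 1 was higher and 4 lower (16.6% and 8.75% of all tested genes were), with a median of -0.549. The lower genes numbered 3 to 7 with 1 library left out, 7 of them without iTreg.Ezh2fl/fl.177. Control cells had 3 higher, none lower and a median of 0.525. Bhlhe41, a transcription factor of Th2 cells, was at 0.165, 0.257 and 0 CPM in iTreg and 4.71, 3.45 and 3.62 in Th0 cells (log2 change -4.76, SE 0.69, edgeR adjusted p 0.00203). Ccr4, a chemokine receptor of Th2 and regulatory cells, was at 15.3, 14.6 and 4.06 CPM against 112, 42.0 and 45.8 (-2.58, edgeR adjusted p 0.00895), and Nfil3, a basic leucine zipper factor, fell by 2.26 (edgeR adjusted p 0.00915). Il24, an IL-10 family cytokine, was called at -3.96 and lost without iTreg.Ezh2KO.150, Th0.Ezh2fl/fl.173 or any Th0 library of the deleted genotype (edgeR adjusted p at most 0.155). The single higher gene was Maf, a factor that drives IL-4 and IL-10, at 126, 112 and 224 against 57.8, 39.4 and 43.3 CPM (log2 change 1.69, edgeR adjusted p 0.0332; lost without iTreg.Ezh2KO.165 or any 1 of the 6 Th0 libraries of the 2 genotypes, at most 0.107). Gata3, the main Th2 factor, was at 35.6, 34.6 and 46.8 CPM in iTreg and 83.2, 45.3 and 45.5 in Th0 cells, with no call and overlapping groups. Il10 was not called either, at 7.63 to 13.2 CPM in iTreg and 29.2, 3.94 and 4.46 in Th0 cells. The response was called more negative than in control cells for 4 of the 14, where 2.86% of all tested genes were. It was so by 4.21 on the log2 scale for Maf, 3.81 for Ccr4, 5.43 for Bhlhe41 and 6.52 for Il1rl1, a receptor of IL-33. Of these differences only that of Maf held whichever library was left out (edgeR adjusted p of the others at most 0.114).

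Of 6 Th17 genes, Ahr and Stat3 were higher and Ccr6 lower (16.6% and 8.75% of all tested genes were higher and lower). Ccr6, a chemokine receptor found on Th17 cells among others, had 2 counts in all iTreg and 303 in all Th0 libraries, a pooled ratio of 129 (95% counting interval 35.5 to 1070). Its log2 change was -6.80 (edgeR adjusted p 0.000287). Control cells held 2.11 to 4.85 CPM in both cultures, and the difference between responses was -6.43 (SE 0.80, edgeR adjusted p 0.00277). B cell markers fell in the same comparison, and the part of B cells in the Ccr6 reads was not tested. Ahr, a sensor of aromatic compounds, and Stat3, which relays IL-6 and IL-10, were called at 1.96 and 0.46, with the calls lost without any 1 of 8 or 9 libraries, among them every Th0 library of both genotypes (edgeR adjusted p at most 0.126).

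Among 12 inhibitory receptors and exhaustion factors, 3 were higher and 3 lower (16.6% and 8.75% of all tested genes). Without iTreg.Ezh2KO.165, 5 were higher. Ctla4 and Tigit are described above. Tox, a nuclear factor of exhausted T cells, was the third, at 52.3, 58.0 and 45.4 against 19.4, 29.5 and 31.4 CPM (log2 change 0.93, edgeR adjusted p 0.00636). Havcr2, the receptor TIM-3, went down from 13.4, 8.32 and 7.00 to 2.27, 3.04 and 1.69 CPM (log2 change -2.06, SE 0.30, edgeR adjusted p 0.00217), and up by 1.10 in control cells, where no library exceeded 1.22 CPM (difference -3.16, edgeR adjusted p 0.00526). Nr4a3, an orphan receptor induced by antigen receptor signals, fell by 2.48 (edgeR adjusted p 0.00329), and its relative Nr4a1 by 1.45 (0.0353, with the call lost in 9 of the 12 fits that left out 1 library, adjusted p at most 0.107).

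Of 26 factors induced by the antigen receptor, 10 were lower and 4 higher, where 8.75% and 16.6% of all tested genes were, with a median of -0.339 and 8 to 12 lower genes with 1 library left out. Fosl2, an AP-1 subunit, was at 12.4, 16.5 and 7.21 CPM in iTreg and 95.2, 67.4 and 75.5 in Th0 cells (log2 change -2.75, SE 0.27, edgeR adjusted p 0.000288). Egr2 and Egr3, zinc finger factors induced by calcium and Ras signals, stood at 0.537 to 0.867 CPM in iTreg and 2.92 to 6.95 in Th0 cells (-2.51 and -3.04, edgeR adjusted p 0.00104 and 0.000270). Nfatc2, a calcium-dependent factor, was lower by 0.64 (edgeR adjusted p 0.00573) and, unlike in the deleted cells, higher by 0.42 in control cells (difference -1.06, edgeR adjusted p 0.00655). The 4 higher members were Jun, Dusp2, a phosphatase of mitogen-activated kinases, and 2 inhibitors of NF-kappaB, Tnfaip3 and Nfkbia (log2 changes 2.65, 1.14, 2.27 and 0.92). The call of Nfkbia was lost without Th0.Ezh2KO.174 or Ezh2KO.175 (edgeR adjusted p at most 0.0571). In control cells 3 were higher and 8 lower, with a median of -0.425.

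Of 23 cytokine and chemokine genes, 6 were lower and 2 higher (8.75% and 16.6% of all tested genes were), and the median was -0.942. Ccl22, a ligand of Ccr4, was at 0.0826, 0 and 0.0913 CPM in iTreg and 3.55, 1.41 and 1.65 in Th0 cells (log2 change -5.17, edgeR adjusted p 0.00158). Csf1, the macrophage growth factor, fell from 16.1, 7.58 and 7.28 to 2.40, 1.84 and 2.37 CPM (log2 change -2.25, edgeR adjusted p 0.00450). Ltb, which encodes lymphotoxin beta, rose from 108, 153.3 and 168 to 343, 387 and 750.3 CPM (log2 change 1.76, edgeR adjusted p 0.00430), with no call in control cells and a difference of 2.19 (edgeR adjusted p 0.0171; 0.0504 without Th0.Ezh2fl/fl.176). Xcl1, a chemokine for cross-presenting dendritic cells, was higher by 1.71 (edgeR adjusted p 0.0143; 0.0665 at most without Th0.Ezh2KO.165 or Ezh2KO.175). The number of lower genes was 2 without Th0.Ezh2KO.165 and 11 without iTreg.Ezh2KO.165.

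**Figure D2:**
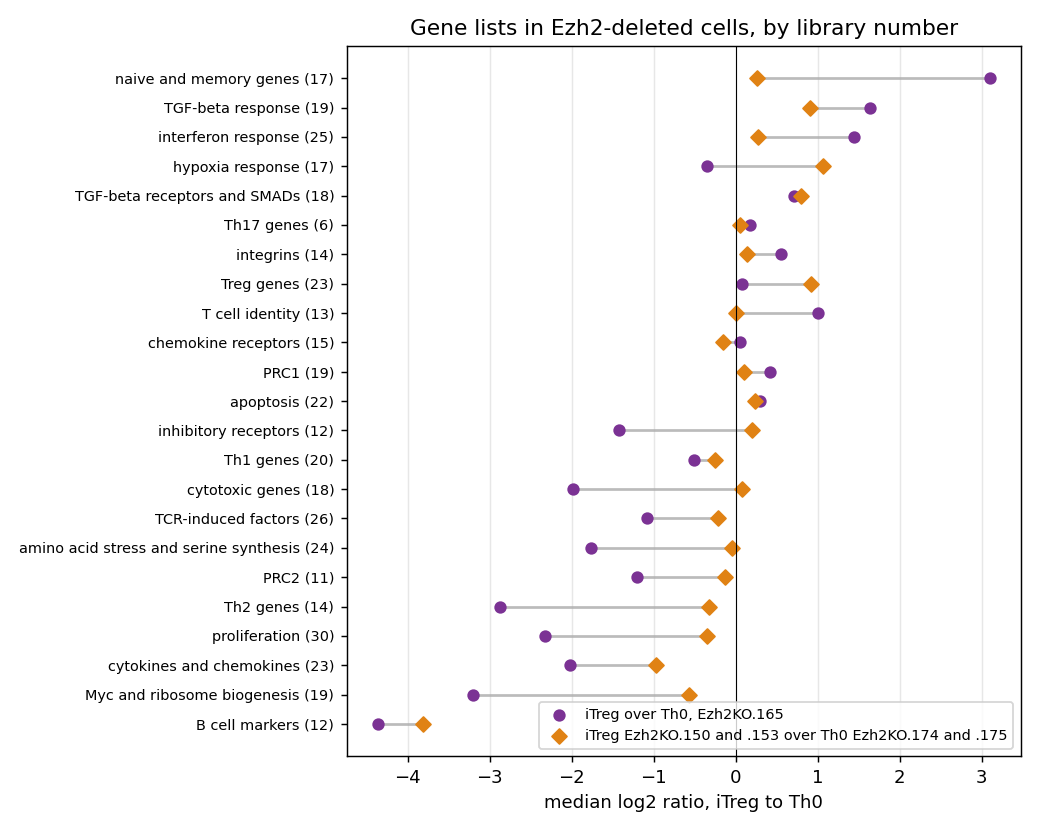
Median log2 ratio of iTreg to Th0 CPM in Ezh2-deleted cells for 23 gene lists (tested members in brackets), within Ezh2KO.165 (circles) and between the other 4 libraries (diamonds). The naive and memory list stands at 3.1 within Ezh2KO.165 and 0.26 in the others, proliferation at -2.33 and -0.348, and B cell markers at -4.37 and -3.81.

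Genes of naive and memory cells were higher mainly through iTreg.Ezh2KO.165. Of 17, 7 were called higher and none lower (16.6% and 8.75% of all tested genes were), with a median of 1.87. No member was called without any 1 Th0 library of the deleted genotype, 5 were called without iTreg.Ezh2KO.165, and 12 without iTreg.Ezh2KO.153. Il7r, the IL-7 receptor chain of resting T cells, was at 32.0 and 24.0 CPM in iTreg.Ezh2KO.150 and Ezh2KO.153 but at 651 in iTreg.Ezh2KO.165. Th0 cells held 5.83 to 9.46 CPM (log2 change 4.97, SE 1.34, edgeR adjusted p 0.0265; 0.0931 at most when 1 library was left out). Klf2, the factor that keeps T cells in circulation, was at 70.7, 69.2 and 446 CPM against 11.2, 24.9 and 27.0 (3.18, edgeR adjusted p 0.0153; at most 0.0647), and Ccr7, the lymph node homing receptor, at 171, 166 and 733 against 83.7, 99.7 and 103 (1.87, edgeR adjusted p 0.0354; at most 0.114). For these 3 genes the cultures did not overlap. Ccr9, Cd27, Foxp1 and Klf3 were the other 4, also highest in iTreg.Ezh2KO.165. Tcf7, which encodes the memory factor TCF-1, was at 2514 CPM in iTreg.Ezh2KO.165 but at 98.3 and 71.3 in the other iTreg libraries, under the 116, 171 and 149 of Th0 cells. It was not called, and without iTreg.Ezh2KO.165 its change was -0.81 in place of 2.59. The naive and memory list was uneven in control iTreg cells too. Its summed level was 8608 CPM in iTreg.Ezh2fl/fl.177, against 4809 and 5352 in Ezh2fl/fl.154 and Ezh2fl/fl.155. In the deleted iTreg libraries the sums were 2503, 2366 and 9523 CPM.

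Of 14 integrin genes 6 were higher and 3 lower (16.6% and 8.75% of all tested genes were), with a median of 0.428. Without Th0.Ezh2KO.174 or Ezh2KO.175 only 2 were higher. Itgb7, the partner chain of Itgae and Itga4 in gut homing, rose from 264, 327 and 363 to 776, 785 and 1124 CPM (log2 change 1.46, SE 0.17, edgeR adjusted p 0.000720). Itga4 was at 95.5, 62.3 and 1451 CPM against 25.2, 28.9 and 34.9 (4.14, edgeR adjusted p 0.0312), lost without iTreg.Ezh2KO.165 or any Th0 library of the deleted genotype (at most 0.105). Itgal, the alpha chain of LFA-1, went down a little in every library, from 1043, 1077 and 1097 to 679, 716 and 850.2 CPM (-0.55, edgeR adjusted p 0.00746). Itgb3 and Itgb5, both partners of Itgav, were lower by 1.35 and 1.57 (edgeR adjusted p at most 0.0303), and both calls were lost without Th0.Ezh2KO.165, that of Itgb3 also without iTreg.Ezh2KO.150, Th0.Ezh2KO.174 or Th0.Ezh2KO.175 (at most 0.0977). Cx3cr1, the fractalkine receptor, was 1 of 3 higher genes among 15 chemokine receptors, where 16.6% of all tested genes were higher. None of the 15 was called higher without any 1 Th0 library of the deleted genotype. Cx3cr1 stood at 2.02, 2.27 and 5.07 against 0.563 to 1.04 CPM (2.01, edgeR adjusted p 0.0260, and 0.0955 at most without 1 such library). Its response was 8.05 in control cells, where Th0 libraries had 0 to 0.111 CPM, and the difference was -6.04 (edgeR adjusted p 0.00717). Cxcr4, the receptor for CXCL12, did not respond by the test (13.2 to 21.4 CPM in all 6 libraries) but rose by 3.34 in control cells (difference -3.17, edgeR adjusted p 0.00527).

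By the size of the change, the 12 largest rises among genes with at least 5 CPM in iTreg cells and no overlap between cultures were those of Ace, Peli2, Myrip, Col9a2, Cd8a, Itgae, Kirrel, Matk, Fgfr1, Il7r, Clec12a and Gja5. Ace, the angiotensin-converting enzyme, had 1099 counts in the iTreg and 3 in the Th0 libraries, a pooled ratio of 429 (95% counting interval 146 to 2080), with 6.07, 6.05 and 37.0 CPM in iTreg. Peli2, an E3 ligase of Toll-like receptor signalling, was at 8.88, 7.80 and 19.4 CPM in iTreg and 0.0386 to 0.149 in Th0 cells (log2 change 6.84, SE 0.71, edgeR adjusted p 0.000409), and it rose by 8.39 in control cells. Clec12a, a myeloid inhibitory lectin, was at 9.71, 6.56 and 4.11 against 0.0703 to 0.297 CPM (4.95, edgeR adjusted p 0.000341). Not all of these rises were even across libraries. Matk, a kinase that inhibits Src kinases, was at 3.80, 3.30 and 238 CPM against 1.58 to 2.32 (5.40, edgeR adjusted p 0.0454), and the call was lost in 9 of the 12 fits with 1 library left out (0.507 at most). Col9a2 and Fgfr1 likewise stood highest in iTreg.Ezh2KO.165, and their calls were lost without any 1 Th0 library (adjusted p at most 0.0737).

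Cd8a, which a CD4 T cell normally silences, was at 122, 117 and 17.7 CPM in iTreg and 2.94, 0.891 and 0.211 in Th0 cells (log2 change 5.97, SE 0.98, edgeR adjusted p 0.00371). Cd8b1, the beta chain, rose less, from 6.12 to 7.65 CPM to 15.7 to 21.9 (1.35, edgeR adjusted p 0.00109), and Klrd1, the CD94 chain of natural killer receptors, from 4.52, 8.69 and 11.1 to 49.8, 45.5 and 96.9 CPM (2.95, edgeR adjusted p 0.00109). In control cells Cd8a was at 0.840 to 1.89 CPM in Th0 and 8.58 to 17.1 in iTreg. Cd4 was higher as well, by 0.65, as were Cd3e and Cd3g of the antigen receptor complex, by 1.02 and 1.19 (edgeR adjusted p at most 0.00721). These were the 3 called among 13 T cell identity genes, where 16.6% of all tested genes were called higher. Whether a few CD8 cells or CD4 cells with Cd8a transcripts gave these reads was not tested.

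Many of the largest falls were of genes known from B cells. Among the 12 with the largest change under the same rule were Ms4a1, Mzb1, Cd22, Mef2c, Ctsh, Blnk, Fcer2a, Cd83, Chst3, Tnfrsf8 and Cybb. Ms4a1 (chromosome 19, 11250603 to 11266151), the B cell antigen CD20, was at 0.165, 0.0429 and 0.365 CPM in iTreg and 55.5, 23.0 and 27.99 in Th0 cells (log2 change -7.55, SE 0.59, edgeR adjusted p 0.000132). Igj, the J chain of secreted antibody, was at 0.456 to 0.815 against 52.99, 19.8 and 15.6 (-5.53, edgeR adjusted p 0.000334). All 12 of the fixed B cell markers were lower in every iTreg library (27.7% of all tested genes were), and their median was -4.33. In control cells 6 were lower and 1 higher, with a median of -1.22 and summed levels of 96.8 to 157 CPM in Th0 and 36.4 to 43.8 in iTreg. Th0.Ezh2KO.165 had the highest level of all 12 markers and of all 12 falls among the Th0 libraries, by a median log2 ratio of 1.08 and 1.09, where 37.7% of all tested genes were highest there. Of the 101 genes lower by more than 8-fold, 78 (77.2%) were highest in Th0.Ezh2KO.165. The part of such cells or transcripts in the falls was not tested.

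Lmna, which encodes the nuclear lamins A and C, is not on the B cell list. It was at 0.909, 0.815 and 0.730 CPM in iTreg and 36.3, 27.9 and 28.1 in Th0 cells (log2 change -5.25, SE 0.28, edgeR adjusted p 2.47e-05), and in control cells it was 2.30 to 3.05 in Th0 and 0.766 to 1.56 in iTreg (difference -4.13, edgeR adjusted p 0.000610). Tnfsf14, the ligand LIGHT, stood at 0.472 to 0.958 CPM in iTreg and 9.81 to 9.97 in Th0 cells (-3.97, edgeR adjusted p 0.000255), with a control response of -3.33.

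Proliferation and ribosome genes were seldom called over all 12 libraries, and their ratios were larger within Ezh2KO.165. Of 30 proliferation genes 26 had every iTreg library below every Th0 library (27.7% of tested genes did), while only Cdc20, the activator of the anaphase-promoting complex, was called, at 128, 129.8 and 63.3 against 179, 182 and 183 CPM (-0.79, edgeR adjusted p 0.0338; 0.0933 at most without any 1 Th0 library of either genotype or iTreg.Ezh2fl/fl.155). The median was -2.33 within Ezh2KO.165 and -0.348 in the others. Of 19 Myc and ribosome biogenesis genes, Wdr12 was the 1 called, at 45.1, 48.5 and 50.9 against 70.2, 67.3 and 68.7 CPM (-0.54, edgeR adjusted p 0.00418). The median there was -3.2 within Ezh2KO.165 and -0.571 in the others. Without iTreg.Ezh2KO.165, 5 proliferation and 4 ribosome biogenesis genes were called lower, of 1635 lower genes in all. In control cells no proliferation gene was called lower over all 12 libraries. There 22 were lower without iTreg.Ezh2KO.165 and 19 in the control libraries alone, of 3803 and 3262 lower genes in all. In deleted cells Myc itself was at 272, 305 and 46.8 CPM in iTreg and 217 to 227 in Th0 culture, higher than Th0 in 2 libraries and lower in 1.

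Of 17 hypoxia-responsive genes 5 were higher and none lower, where 16.6% and 8.75% of all tested genes were. The median was 0.771 (-0.347 within Ezh2KO.165 and 1.07 in the others). Mxi1, an antagonist of Myc, was at 43.4, 45.9 and 38.9 against 18.3, 13.3 and 12.8 CPM (log2 change 1.5, edgeR adjusted p 0.00155), and Bnip3l, a mitophagy receptor, Ddit4, an inhibitor of mTOR, and Kdm3a, a histone demethylase, rose by 1.51, 1.14 and 0.89 (edgeR adjusted p 0.00199, 0.00225 and 0.00153). Vegfa was the fifth, at 29.6, 37.5 and 3.47 against 4.20 to 5.27 CPM, overlapping through iTreg.Ezh2KO.165, and its call was lost in 9 of 12 fits with 1 library left out (edgeR adjusted p at most 0.125). In control cells 5 were higher and 1 lower, with a median of 0.649. Of 22 apoptosis genes 6 were higher and 3 lower (16.6% and 8.75% of all tested genes were). Without any 1 Th0 library of the deleted genotype 2 were higher, and without iTreg.Ezh2KO.153 6 were lower. Bmf, which senses cell detachment and promotes death, rose from 2.74, 3.94 and 3.02 to 29.3, 27.1 and 51.4 CPM (3.44, edgeR adjusted p 0.00308), and Cflar, an inhibitor of caspase-8, from 72.9, 73.2 and 71.1 to 137, 133 and 180.5 (1.02, edgeR adjusted p 0.00185). The survival genes Bcl2a1a and Bcl2a1b, near-identical copies whose reads cannot be fully separated, were lower by 2.40 and 1.93 (edgeR adjusted p 0.000859 and 0.000910).

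**Figure D3:**
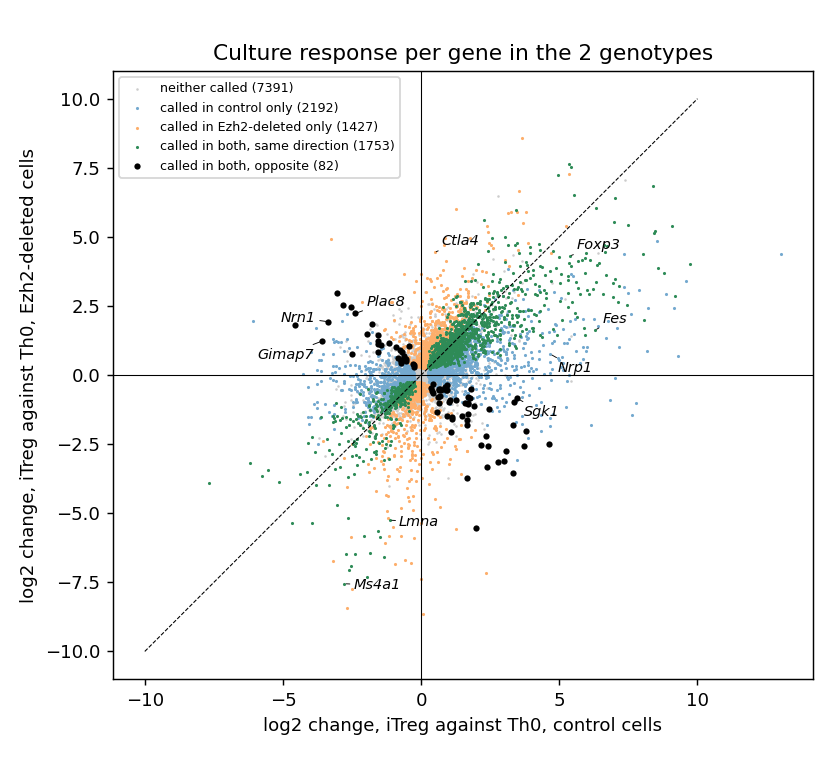
Log2 change of iTreg against Th0 culture for 12845 tested genes in control (x axis) and Ezh2-deleted cells (y axis), coloured by call, with the line of equal change dashed. The 1753 genes called in the same direction in both lie in the upper right and lower left, and the 82 called in opposite directions (black) lie in the upper left and lower right.

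How much of the culture response of control cells remained without Ezh2 was read from genes chosen by their calls in control cells. Those calls come from the model of all 12 libraries, so the libraries of the deleted genotype bear on them: without iTreg.Ezh2KO.165 the higher genes of control cells numbered 4392. In control cells 2555 genes (19.9%) were higher and 1472 (11.5%) lower in iTreg culture. Of the 2555, 1268 (49.6%) were also called higher in deleted cells, 51 were called lower and 1236 were not called. The sign was positive for 2287 (89.5%), against 52.6% of all tested genes, and the median log2 change was 1.14 in control and 0.683 in deleted cells. A median is drawn toward 0 in the genotype that did not choose the genes: chosen the other way, the 2138 genes had 1.07 in deleted and 0.826 in control cells, and 59.3% were called higher there. Of the 1472 lower genes, 485 (32.9%) were called lower and 31 higher in deleted cells, with medians of -0.769 and -0.408. The shares depended on the libraries: leaving out 1 library gave 21.6% to 57.9% for the higher and 14.6% to 41.3% for the lower genes, with the lowest without Th0.Ezh2KO.175, or Ezh2KO.174 for the lower genes. Of the 576 higher and 330 lower genes whose calls held in all such fits, 432 and 150 were called in the same direction in control cells.

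The difference of the 2 responses was itself called for 577 genes (4.49%), 209 with a more positive (1.63%) and 368 with a more negative (2.86%) response in deleted cells, and 63 and 182 of them kept the call whichever library was left out. Among the genes higher in control iTreg culture it was called for 282 (11.0%), of which 274 had the smaller response in deleted cells. Choosing genes by their control response favours that direction: among genes higher in deleted iTreg culture it was called for 145 (6.78%), with the smaller response in control cells for 97 and in deleted cells for 48. Fes, a tyrosine kinase, was at 6.28, 5.32 and 4.93 CPM in iTreg and 2.32, 1.37 and 1.55 in Th0 cells (log2 change 1.63, edgeR adjusted p 0.00184), against 52.0 to 72.4 and 0.610 to 0.890 in control cells (6.30, difference -4.67, SE 0.34, edgeR adjusted p 0.000351). Sestd1, a protein with spectrin repeats, rose by 0.72 without Ezh2 and by 2.85 with it (difference -2.14, edgeR adjusted p 0.000610). Pdlim4, an adaptor of the cytoskeleton, stayed at 2.34 to 3.38 CPM in both cultures of deleted cells and went from 3.66 to 5.56 CPM to 45.1 to 78.4 in control cells (difference -3.87, edgeR adjusted p 0.000610). The response was thus smaller for Fes and Sestd1 and not called for Pdlim4.

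The 2 genotypes were called in opposite directions for 82 genes, 51 lower in deleted and higher in control iTreg culture and 31 the other way. Sgk1, a kinase downstream of TGF-beta and of mTORC2, was at 31.2, 32.9 and 32.1 CPM in iTreg and 58.3, 51.4 and 58.4 in Th0 cells without Ezh2 (log2 change -0.84, SE 0.19, edgeR adjusted p 0.0145; 0.0545 at most without Th0.Ezh2KO.165 or Ezh2KO.175). In control cells it rose from 12.4, 16.6 and 14.9 to 199.7, 189 and 118 CPM (3.46), and the difference was -4.30 (SE 0.28, edgeR adjusted p 0.000343). Gna15, a G protein subunit of blood cells, was likewise lower in deleted (-0.84, edgeR adjusted p 0.00450) and higher in control cells (1.77), and so was Kctd14 (-0.97 and 3.35), whose call in deleted cells was lost in 9 of the 12 fits with 1 library left out (edgeR adjusted p at most 0.124). The reverse held for Gimap7, a GTPase of lymphocyte survival. It was at 95.6, 89.1 and 97.4 CPM in iTreg and 31.7, 37.1 and 48.8 in Th0 cells without Ezh2 (1.23, edgeR adjusted p 0.00719) and fell from between 61.1 and 81.6 to between 4.08 and 7.92 CPM in control cells (difference 4.81, SE 0.34, edgeR adjusted p 0.000351). Nrn1, a surface protein of anergic and regulatory T cells, rose by 1.93 and fell by 3.37 in control cells (difference 5.30, edgeR adjusted p 0.000450), and Plac8 rose from 50.5, 57.3 and 56.4 to 304, 256 and 226 CPM where control cells had -2.38 (difference 4.61, edgeR adjusted p 0.00102).

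**Figure D4:**
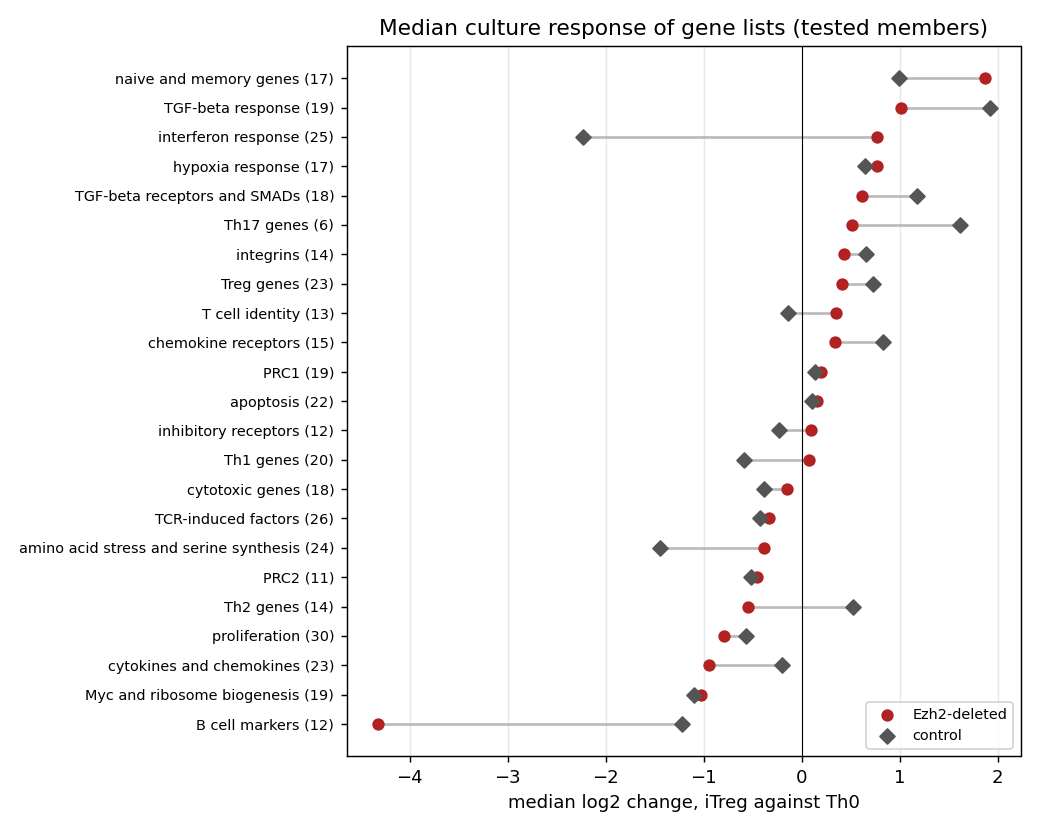
Median log2 change of iTreg against Th0 culture for 23 gene lists (tested members in brackets) in Ezh2-deleted (circles) and control cells (diamonds). The medians of the interferon response list lie on opposite sides of 0, at 0.772 without Ezh2 and -2.23 in control cells, and those of the TGF-beta response list both above it, at 1.01 and 1.92.

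By number, the interferon response list had more called differences between genotypes than any other list shown (16 of 25 genes). Of 12 B cell markers the difference was called for 8, each more negative in deleted cells, as 2.86% of all tested genes were. Interferons act through receptors at the cell surface on promoter elements in genes that block viruses. Of 25 tested genes 5 were higher and none lower in iTreg culture without Ezh2 (16.6% and 8.75% of all tested genes), with a median of 0.772. In control cells 19 were lower and none higher (11.5% and 19.9% of all tested genes), with a median of -2.23. The 19 became 11 without Th0.Ezh2fl/fl.173 and at most 21 with 1 library left out. The difference was positive for all 25 and called for 16 of them, where 1.63% of all tested genes were called with a positive difference. In the deleted cells 16 genes had every iTreg library above every Th0 library (30.6% of all tested genes did). The response within deleted cells was unstable: no gene was called when any 1 Th0 library of that genotype was left out, 1 when iTreg.Ezh2KO.165 was left out and 10 when iTreg.Ezh2KO.153 was left out. The 6 libraries alone gave 1 higher and 1 lower gene. In the full model 1 gene was called lower without iTreg.Ezh2fl/fl.154, Th0.Ezh2fl/fl.173 or Th0.Ezh2fl/fl.176. The number of called differences ran from 4 (without iTreg.Ezh2fl/fl.155 or Th0.Ezh2KO.174) to 20 (without iTreg.Ezh2KO.165).

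RefSeq promoters (GRCm38.p6, the assembly of mm10) were searched for the interferon response element. Of the 25 genes 19 matched an entry in the RefSeq promoter table, which holds 250 bases before to 50 after each start. Of the 19, 11 (57.9%) held GAAA, any 2 bases and GAAA again on either strand. So did 1079 of all 27025 genes with an entry (3.99%) and 357 of 9497 tested genes with an entry (3.76%). A gene was counted when any of its promoters held a match. Among genes with a more positive response in deleted cells 22 of 147 (15.0%) held it, and among those with a more negative response 11 of 270 (4.07%). Genes of the interferon list were not taken out of these sets, and 16 of them were called with a more positive response. The 15.0% and the 57.9% therefore share genes and are not separate results. The 200 bases before the start of 3 genes whose responses differed are printed 5′ to 3′ on the strand of the gene, with bases within a match of either strand in capitals. They lie at chr12:26456453-26456652 (minus strand), chr19:34583329-34583528 (plus) and chr4:156200819-156201018 (minus), and hold 1, 2 and 3 matches, which overlap in Isg15.
Rsad2: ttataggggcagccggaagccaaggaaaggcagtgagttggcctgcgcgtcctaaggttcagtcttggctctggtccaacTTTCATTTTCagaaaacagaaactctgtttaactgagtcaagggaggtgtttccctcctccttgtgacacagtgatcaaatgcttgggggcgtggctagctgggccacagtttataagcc
Ifit3: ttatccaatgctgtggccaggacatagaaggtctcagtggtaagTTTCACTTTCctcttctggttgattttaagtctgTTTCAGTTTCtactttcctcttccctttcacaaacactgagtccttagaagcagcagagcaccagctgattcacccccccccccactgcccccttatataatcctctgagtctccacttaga
Isg15: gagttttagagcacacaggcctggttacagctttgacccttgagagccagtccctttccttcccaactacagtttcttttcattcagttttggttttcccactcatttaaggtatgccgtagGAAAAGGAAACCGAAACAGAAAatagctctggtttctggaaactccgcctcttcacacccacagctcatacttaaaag

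Rsad2, which encodes the antiviral enzyme viperin, was at 2.73, 2.74 and 14.4 CPM in iTreg and 0.425, 0.854 and 1.16 in Th0 cells without Ezh2 (log2 change 2.98, SE 0.84, edgeR adjusted p 0.0309). In control cells it was at 0.152, 0.0816 and 0.443 CPM in iTreg and 3.38, 0.816 and 1.22 in Th0, a change of -3.04, and the difference was 6.02 (SE 1.26, edgeR adjusted p 0.0272). Ifit3, which holds viral RNA back from translation, was at 9.71, 10.6 and 33.2 CPM against 1.35, 3.97 and 4.15 (2.46, edgeR adjusted p 0.0365), with -2.55 in control cells (difference 5.02, edgeR adjusted p 0.0269). For both genes the cultures did not overlap in either genotype. Both calls in deleted cells were lost without iTreg.Ezh2KO.165 or any 1 Th0 library of that genotype, and that of Ifit3 also without Th0.Ezh2fl/fl.177 (edgeR adjusted p at most 0.118), and both differences without 6 or 7 of the 12 libraries in turn (at most 0.0801). Control Th0.Ezh2fl/fl.173 held the highest level of both.

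Isg15, a ubiquitin-like protein, differed in every fit. It was at 7.89, 8.23 and 11.3 CPM in iTreg and 3.75, 4.87 and 6.22 in Th0 cells without Ezh2, which did not overlap but were not called (0.85, edgeR adjusted p 0.177). In control cells it was at 1.49, 1.35 and 0.685 CPM in iTreg and 32.5, 8.56 and 12.5 in Th0 (-3.98), with a difference of 4.84 (SE 0.70, edgeR adjusted p 0.00527). Ifi44, a cytoplasmic protein of unclear action, had the largest difference on the list, 8.04 (SE 1.17, edgeR adjusted p 0.00527), with 5.33, 4.37 and 12.1 CPM in iTreg against 0.966, 1.89 and 2.57 without Ezh2 and at most 0.229 in control iTreg. Usp18, the enzyme that removes Isg15 from proteins, was not called without Ezh2, at 21.2, 19.7 and 29.8 against 20.05, 30.7 and 36.2 CPM, and fell by 3.78 in control cells (difference 3.45, edgeR adjusted p 0.0109). Mx1, an antiviral GTPase, had a log2 change of -1.53 without Ezh2, not called over all 12 libraries (edgeR adjusted p 0.0609). In the 6 libraries alone it passed the threshold (edgeR adjusted p 0.0162). A pair of genes of antigen presentation moved too. B2m, the light chain of class I molecules, rose by 0.59 in deleted cells (edgeR adjusted p 0.0144; 0.0591 at most without any 1 Th0 library) and fell by 0.55 in control cells (difference 1.14, edgeR adjusted p 0.00940), and H2-M3, a class I molecule for bacterial peptides, rose by 1.15 (edgeR adjusted p 0.000255; difference 1.32, 0.00176).

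**Figure D5:**
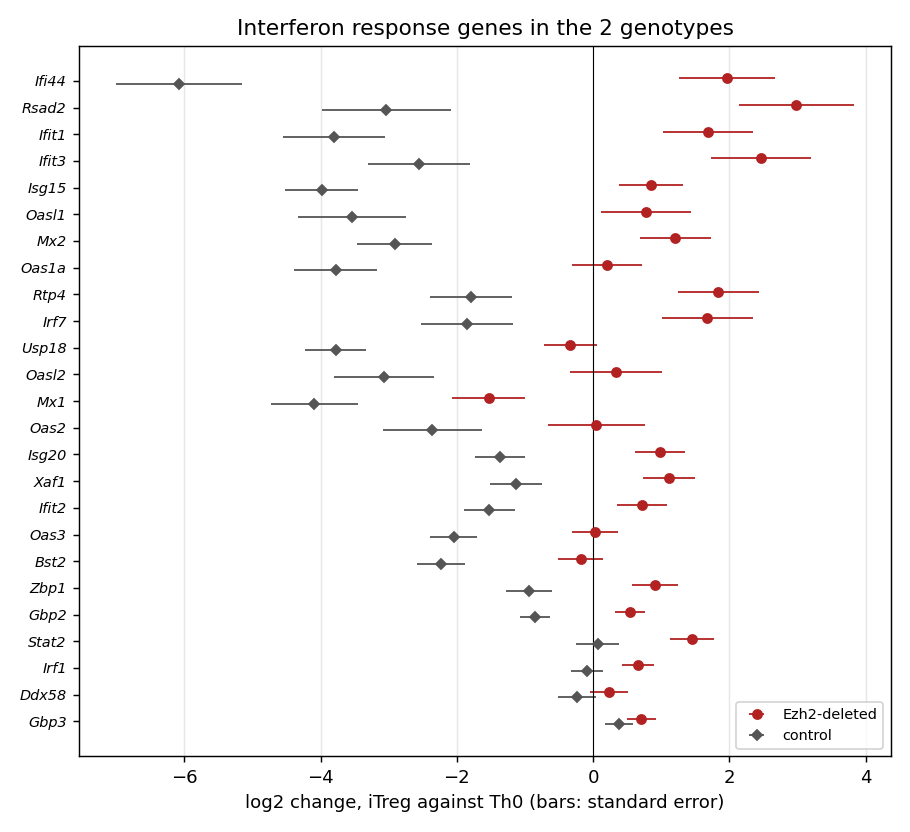
Log2 change of iTreg against Th0 culture for the 25 interferon response genes in Ezh2-deleted (circles) and control cells (diamonds), with the standard error as bars, ordered by the difference. All 25 deleted values lie to the right of the control value, and 22 lie above 0 where 23 control values lie below.

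Genes of amino acid stress and serine synthesis also differed. In control cells 11 of 24 were lower in iTreg culture and none higher (11.5% and 19.9% of all tested genes were), with a median of -1.45. Without Ezh2 2 were lower, a share close to the 8.75% of all tested genes, and 2 higher (16.6% of all), and the median was -0.386. Without iTreg.Ezh2KO.165, 5 were higher, and without any 1 Th0 library of the deleted genotype none was lower. The difference was called for 6, all positive (1.63% of all tested genes were called so), and for 1 without iTreg.Ezh2fl/fl.155 and 16 without iTreg.Ezh2KO.165. Trib3, an inhibitory pseudokinase of the stress response, was at 30.3, 32.3 and 35.4 CPM in iTreg and 11.0, 16.5 and 18.4 in Th0 cells (1.06, edgeR adjusted p 0.0104), and Atf5, a stress-induced factor, was higher by 0.63 (edgeR adjusted p 0.0311; 0.112 at most without Th0.Ezh2fl/fl.176 or any Th0 library of the deleted genotype).

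Of 11 PRC2 genes 2 were higher and 1 lower, shares close to the 16.6% and 8.75% of all tested genes. Ezh1, the other catalytic subunit, and Phf1 were higher by 1.59 and 1.91, and Eed, a core subunit, was lower by 0.70. All 3 calls were lost without any 1 Th0 library of the deleted genotype (edgeR adjusted p at most 0.131). Ezh1 was at 59.4, 55.5 and 186 CPM in iTreg and 31.4 to 33.8 in Th0 cells, so that the cultures did not overlap. Bmi1, a PRC1 subunit, was not called, at 240.4 to 301 against 216 to 239 CPM and fell by 0.65 in control cells (difference 0.84, edgeR adjusted p 0.0120). Cdkn2a, a cell cycle inhibitor locus that PRC2 keeps silent in many cells, was at 32.0, 39.5 and 1.10 CPM in iTreg and 35.8, 47.1 and 55.2 in Th0 cells, with no call.

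Last, the H3K27me3 reads of control Th0 cells, which had no part in the RNA calls, were set beside them. Density over the gene interval, in CPM per kilobase, had a median of 0.511 over 12592 tested genes. It was 0.592 for genes higher and 0.528 for genes lower in iTreg culture without Ezh2, with 10.3% and 14.6% of them in the top 10% of all genes. Genes whose response was more negative without Ezh2 had a median of 1.04, and 113 of 364 (31.0%) lay in the top 10%, while genes with a more positive response had 0.711 and 10.2%. In deleted Th0 cells the medians of all these classes lay between 0.875 and 0.937. Each density is relative to the counted reads of its own library. The values of the 2 genotypes therefore do not show whether the mark itself was higher or lower in deleted cells. The mark is commonly high at genes of low RNA level, and the median level in deleted Th0 cells was 2.48 CPM per kilobase of transcript for the 364 genes and 7.77 for all. The part of that level in the difference was not tested.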

How the data were processed

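RNA was sequenced from 12 cultures (TruSeq RNA v2, per the labels' protocols), and H3K27me3 chromatin from 4. The deposited files give counts of reads per gene, not normalized; the submitters' processing notes name Trimmomatic 0.30, TopHat2 2.0.6, Bowtie2 2.1.0, featureCounts 1.4.2 and mm10. No source used here says whether counting used strand, so overlapping and antisense genes are uncertain. Of 23420 genes, 12845 passed the low-count filter. One model of 4 groups over all 12 RNA libraries was fitted with edgeR 4.0.16 (R 4.3.3; TMM, robust quasi-likelihood test, two-sided), with Benjamini-Hochberg adjustment over all tested genes at 0.05. The difference of culture responses is its interaction term. Printed CPM divide counts by the total counted reads of the library. Alternatives were other size factors, no filter, DESeq2 1.42.0, no robust estimation, each genotype alone and leaving out libraries. Scripts were tested on simulated data. Named genes were fixed ones, the largest rises and falls, the most abundant called genes, up to 4 of smallest p per list, and the smallest p for the difference; further called list members, among them Isg15, Usp18, Ifi44, Furin, Igj and Xist, were chosen after their values were seen. The members and lists were chosen with earlier results of these data known. Libraries of a group are replicates as the series text has it. The p-values rest on a spread estimated for each gene over all 4 groups together. They are therefore no measure of the spread within the 2 compared groups alone, and iTreg.Ezh2KO.165 lay further from its group than other libraries did. Gene positions are the deposited intervals or RefSeq's, on mm10.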

Additional observations from a re-analysis of the deposited data

Results flagged for a closer look

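The test of the difference itself found, for 53 named genes, that the culture response differed between Ezh2-deleted and control cells (edgeR quasi-likelihood test, adjusted p at most 0.0421 over all tested genes). Each value is the log2 response of deleted cells minus that of control cells. It was negative for 32 genes: Sgk1 (-4.297), Fes (-4.67), Gna15 (-2.615), Sestd1 (-2.136), Lmna (-4.128), Pdlim4 (-3.871), Nrp1 (-3.924), Kctd14 (-4.318), Igj (-7.501), Furin (-2.455), Ccr6 (-6.435), Ccr8 (-3.035), Havcr2 (-3.159), Cxcr4 (-3.171), Prf1 (-5.111), Ctsw (-2.031), Nfatc2 (-1.06), Cx3cr1 (-6.045), Smad3 (-1.486), Maf (-4.214), Fosl2 (-2.04), Bhlhe41 (-5.431), Ccr4 (-3.814), Bmpr1a (-1.139), Nrarp (-2.155), Itgb5 (-2.695), Egr3 (-1.886), Ifngr2 (-1.4), Ltbp4 (-2.331), Il1rl1 (-6.518), Entpd1 (-1.985) and Id1 (-4.563). It was positive for 21 genes: Gimap7 (4.815), Nrn1 (5.301), Plac8 (4.609), H2-M3 (1.322), Ctla4 (3.952), Isg15 (4.837), Ifi44 (8.039), Tigit (2.349), B2m (1.137), Usp18 (3.448), Bmi1 (0.8372), Jun (1.192), Ltb (2.191), Cd3g (1.404), Ifit3 (5.018), Rsad2 (6.019), Il12rb2 (3.589), Tox (1.115), Pcgf5 (0.76), Wdr12 (0.5596) and Rtp4 (3.626). The largest difference on either side was that of Ifi44, an interferon-induced gene, and the most negative that of Igj, the J chain of antibody. With 1 library left out, the call was lost in at least 1 fit for Bhlhe41, Ccr4, Ltb, Bmpr1a, Nrarp, Cd3g, Itgb5, Ifit3, Rsad2, Egr3, Ifngr2, Il12rb2, Tox, Pcgf5, Ltbp4, Il1rl1, Entpd1, Wdr12, Rtp4 and Id1 (adjusted p at most 0.126), and the other differences held in all 12 such fits.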

How the results depend on the processing

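Counts of called genes moved with the libraries, and in deleted cells and for the difference no setting called a gene in the direction opposite to its call over all 12 libraries. For genes higher and lower in iTreg culture without Ezh2 (2138 and 1124), leaving out 1 library gave 689 to 2842 and 410 to 1635, the 6 libraries alone 385 and 211, leaving out iTreg.Ezh2KO.165 and Ezh2fl/fl.177 gave 3732 and 3749, and DESeq2 gave 1989 lower genes. For control cells (2555 and 1472) the ranges were 1332 to 4392 and 672 to 3803. Leaving out iTreg.Ezh2KO.165 and Ezh2fl/fl.177 gave 4551 and 4122 there, leaving out both Ezh2KO.165 libraries (chosen after seeing the data) 4292 and 3697, DESeq2 2424 lower genes, and the genotype alone 3262 lower genes. The difference was called for 577 genes, and for 271 to 2552, 5347 (without iTreg.Ezh2KO.165 and Ezh2fl/fl.177), 1805 (without Ezh2KO.165) and 1266 (DESeq2). The share of control-higher genes carried over (49.6%) was 21.6% to 57.9% with 1 library left out, 45.1% with no filter, 58.4% with DESeq2, 56.5% without iTreg.Ezh2KO.165 and Ezh2fl/fl.177 and 26% without Ezh2KO.165. For lower genes (32.9%) these were 14.6% to 41.3%, 27.4%, 44.3%, 59.7% and 16.5%. The cause was not tested. Values that turned direction were of changes that had not passed the test. Without both Ezh2KO.165 libraries they were Tgfb1 (0.01927), Gzmb (0.1139), Il10 (0.9343), Tcf7 (-0.9552) and Myc (0.3368), and without iTreg.Ezh2KO.165 and iTreg.Ezh2fl/fl.177 Gzmb (0.1777), Tcf7 (-0.8094) and Myc (0.3584). With 1 library left out the log2 change ran from -0.3155 to 0.5717 for Gzma, -0.9761 to 0.1775 for Gzmb, -0.7981 to 1.189 for Il10, -0.8099 to 3.127 for Tcf7, -0.5021 to 0.3583 for Myc, -0.2871 to 0.5814 for Id1 and -0.09177 to 0.2337 for Ltbp4, and the difference of Itgae from -3.268 to 0.2947. No paired analysis was possible because the 2 cultures of a genotype share only 1 number, and no label says what it marks.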
